A study of Mus musculus with 9 samples.

Results

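The cathepsins and legumain are the proteases that break down protein inside lysosomes, and their transcripts were followed here in mouse calf muscle with and without dystrophin. The members were all probe sets annotated to Ctss, Ctsb, Ctsd, Ctsl, Ctsz, Ctsk, Ctsh, Ctsc and Lgmn, which came to 14 probe sets for 9 genes, of 12422 probe sets that are not controls and 8251 genes named by 1 symbol. Of the 14, 12 passed a filter that kept probe sets with a mean level above the 40th percentile, and the 2 that did not were Ctsb 162271_f_at and Ctsc 161251_f_at. RNA of the gastrocnemius, a muscle of the calf, of 9 individual mice was hybridised to 1 Affymetrix U74Av2 oligonucleotide array each. There was 1 mdx utrn-/- mouse aged 5 weeks, which lacks both mouse dystrophin and utrophin, the related protein that can take the place of dystrophin at the fibre membrane. The 2 mdx mice, which carry a mutation in the mouse Dmd gene, were 15 and 13 weeks old. The 1 hDMD mdx utrn-/- mouse, with the full-length human DMD gene on the doubly deficient background, was 9 weeks old. The 2 hDMD mdx mice, with the human gene on the mdx background, were 24 and 10 weeks old, and the 1 hDMD mouse, with the human gene beside the intact mouse gene, was 11 weeks old. The 2 wild-type mice, of strain C57Bl/DBA2/129OLA-Ev, were both 7 weeks old. Wild-type 1 was the only female. The mdx utrn-/- and mdx mice are called dystrophin-lacking and the other 6 dystrophin-carrying, by genotype, since the protein was not measured.

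Cathepsins are made as inactive proenzymes, reach the lysosome with the help of mannose 6-phosphate receptors, and mature there at acid pH. Most are cysteine proteases: cathepsins S, L, K and B cut within protein chains, while cathepsins H, C and Z remove residues from chain ends, an activity that cathepsin B has as well. Cathepsin D is an aspartic protease, and legumain cuts after asparagine and also matures some of the other cathepsins. Macrophages are rich in these enzymes, whereas muscle fibres hold them in smaller amounts and use them in autophagy.

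The promoters of the 3 members that differed most by dystrophin status, and of Ctsd, which differed little, are shown to set their sequences side by side. For Lgmn only the second start is printed. They are the 300 bases from 250 before to 50 after the annotated start, taken 5′ to 3′ from RefSeq on GRCm38.p6. Capitals mark CACGTG, the core of E-box elements bound by TFEB, a regulator of lysosomal genes, and GAGGAA or its reverse complement TTCCTC, a core bound by PU.1, a transcription factor of myeloid cells.
Ctss, chr3:95526536-95526835, plus strand: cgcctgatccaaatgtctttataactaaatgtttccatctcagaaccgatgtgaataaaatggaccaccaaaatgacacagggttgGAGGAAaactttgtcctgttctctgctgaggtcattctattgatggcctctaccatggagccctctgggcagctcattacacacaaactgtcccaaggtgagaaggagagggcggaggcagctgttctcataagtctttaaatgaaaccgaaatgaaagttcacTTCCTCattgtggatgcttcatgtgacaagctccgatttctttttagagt
Ctsl, chr13:64370471-64370770, minus strand: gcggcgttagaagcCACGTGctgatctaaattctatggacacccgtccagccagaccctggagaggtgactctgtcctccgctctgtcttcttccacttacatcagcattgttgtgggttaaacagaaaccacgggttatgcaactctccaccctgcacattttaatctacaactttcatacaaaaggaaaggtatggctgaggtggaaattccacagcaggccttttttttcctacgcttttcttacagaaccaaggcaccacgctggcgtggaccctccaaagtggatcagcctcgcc
Lgmn, the second start, chr12:102439043-102439342, minus strand: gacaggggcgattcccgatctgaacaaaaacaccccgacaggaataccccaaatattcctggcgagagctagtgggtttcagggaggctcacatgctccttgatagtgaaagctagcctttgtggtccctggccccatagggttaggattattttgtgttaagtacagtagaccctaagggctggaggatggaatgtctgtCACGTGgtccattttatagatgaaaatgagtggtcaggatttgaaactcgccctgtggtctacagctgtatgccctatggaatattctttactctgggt
Ctsd, chr7:142387778-142388077, minus strand: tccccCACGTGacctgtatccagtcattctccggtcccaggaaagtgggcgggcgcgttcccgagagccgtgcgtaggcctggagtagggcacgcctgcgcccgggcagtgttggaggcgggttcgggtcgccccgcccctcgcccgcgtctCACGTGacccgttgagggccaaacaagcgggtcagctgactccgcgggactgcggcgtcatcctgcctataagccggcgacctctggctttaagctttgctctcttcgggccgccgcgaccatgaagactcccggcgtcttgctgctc

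The table of promoters held 8 entries for 7 of the 9 genes, with 2 starts for Lgmn. CACGTG was present in the promoters of 3 genes (Ctsd, with 2 copies at -245 and -98, Ctsl at -236, and Lgmn at -49 of its second start), against 7.15% of all 32851 promoters in the table. GAGGAA on either strand was present in Ctss at -164 and 1, and in Ctsk and Ctsc, which is 3 genes and 3 of the 8 entries, against 28.3% of all promoters. The other motifs searched on both strands were TGANTCA, found in 0 member genes and in 7.81% of all promoters, CCAAT, in 2 (Ctsz and Lgmn) and 37.4%, TATAAA, in 2 (Ctss and Lgmn) and 13.6%, and GGGCGG, in 5 and 35.7%. No motif's letters contain those of another, and positions count from the start as 1.

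The deposited values were linear intensities with 19.4% to 29.9% at or below 0 in each array, and they were quantile normalised and expressed as log2(value + 16), a scale with its floor at 4 on which all levels and differences below are given. Fold changes on this scale understate the change of dim probe sets. The 13 hybridisation controls split the arrays into 3 bright ones (mdx 2, hDMD mdx 1 and wild-type 1) and 6 dim ones, with medians of the controls at a ratio of 10.05. The 3'/5' signal ratio of actin was 1.20 to 1.87 in the bright arrays and 0.669 to 0.908 in the dim ones, so values within each brightness stand beside the main results. The muscle fibre genes Acta1, Pvalb and Atp2a1 had levels of 11.55 to 11.89 in all arrays. The summed muscle fibre markers spanned 28200 to 30100 in dystrophin-lacking and 28100 to 31200 in dystrophin-carrying arrays. Quantile normalisation gives the brightest probe sets of every array the same few values, so these levels and sums do not check the fibre content. The Dmd probe set lay close to the floor in every array and did not check the labels. Wild-type 2 stood apart from wild-type 1 and held the highest fibroblast and adipocyte marker sums of all 9 arrays (5830 and 7220), so results that rest on it are given without it too.

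Among the cathepsins and legumain, the largest differences between dystrophin-lacking and dystrophin-carrying muscle were in 3 genes, all with higher values in dystrophin-lacking muscle: Ctss by 2.22 ± 0.58, Lgmn by 1.27 ± 0.39 and Ctsl by 0.91 ± 0.33 (difference in log2 ± SE, 3 against 6 arrays). Ctsb, in its brightest probe set, and Ctsd differed by 0.56 ± 0.31 and 0.16 ± 0.21, and both 95% intervals held 0. In limma's test 0 of the 12 probe sets passed an adjusted p of 0.05, which 0.121% of all 7453 probe sets did. At an unadjusted p of 0.05 limma gave 3 of 12 higher (Ctss, Ctsl and Lgmn; 3.26% of all) and 0 lower (2.32% of all). A difference of 1 or more was reached by Ctss and Lgmn, against 1.21% of all probe sets. Of the 12, 11 had a difference above 0 (10 in the deposited values), against 48.2% of all probe sets, and their median difference was 0.39, against -0.01 over all. With the human gene as a covariate 7 of 12 were higher with a median of 0.11, and Ctss, Ctsl and Lgmn had unadjusted p of 0.0754, 0.362 and 0.118 in limma. In the dim arrays alone 11 of 12 were higher with a median of 0.23. Counting each gene by its brightest probe set, 9 of 9 were higher, with a median of 0.44, which was 0.64 within the bright arrays and 0.40 within the dim ones. The groups did not separate fully for any of the 12, whereas 1.52% of all probe sets were higher without overlap and 1.42% lower. Because whole muscle was measured, more cells of a type and more RNA per cell cannot be told apart.

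**Figure D1:**
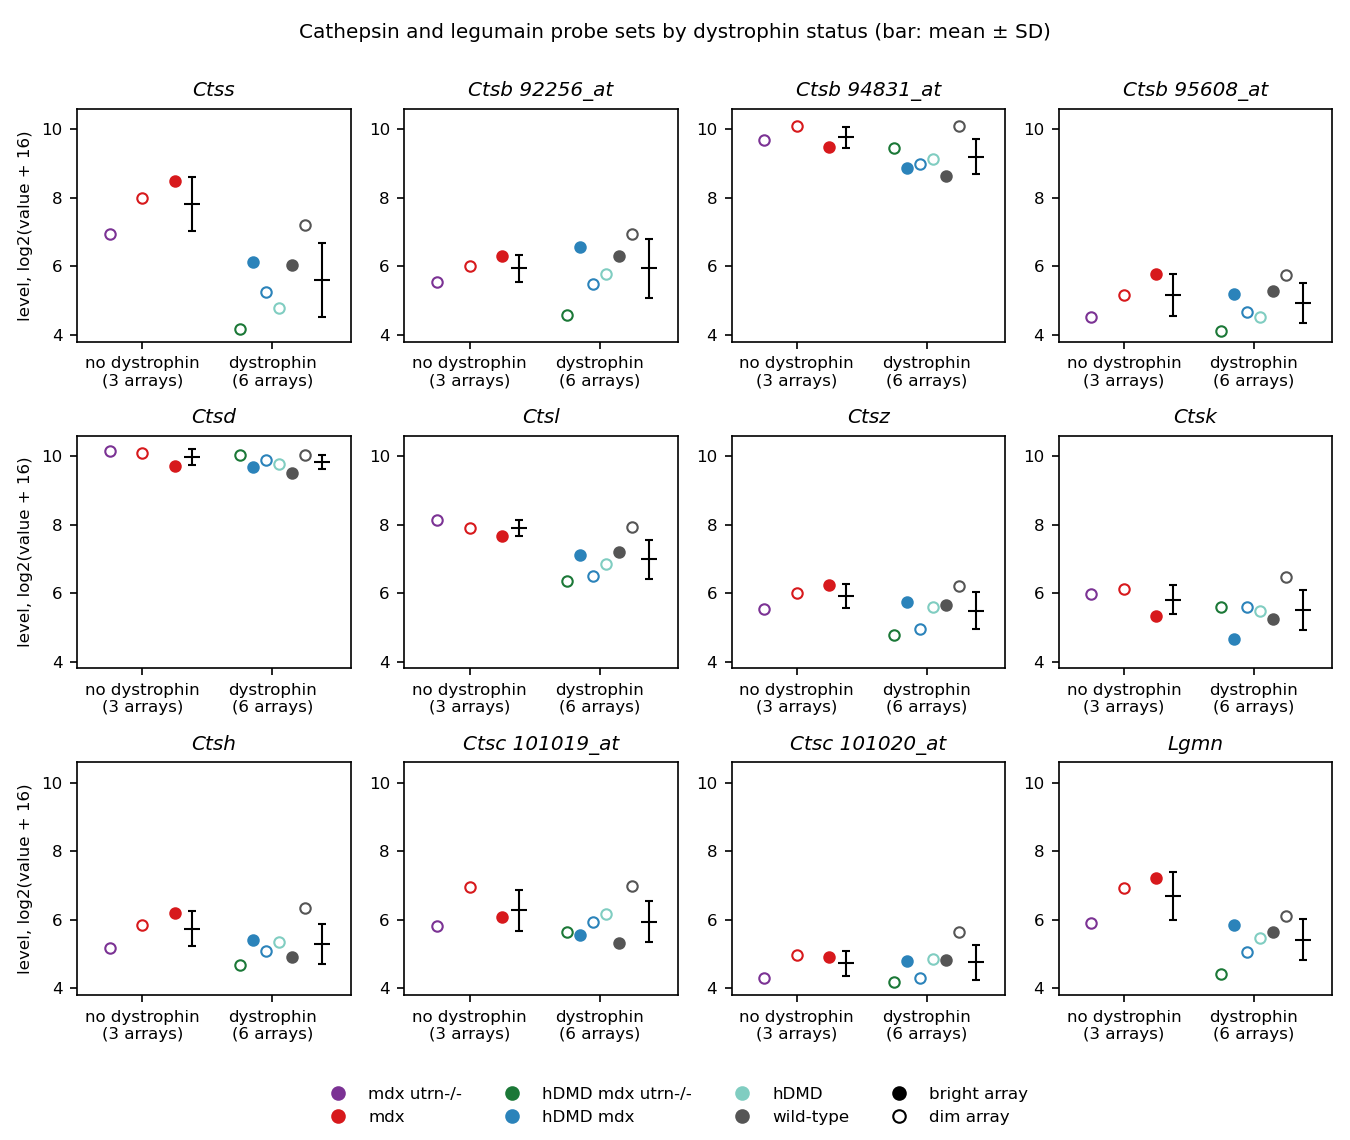
Level of each of the 12 kept cathepsin and legumain probe sets, log2(value + 16), in every array, coloured by genotype, with filled points for bright and open points for dim arrays and bars for the mean ± SD of each class. The 3 dystrophin-lacking arrays lie above 5 of the 6 dystrophin-carrying ones for Ctsl, while wild-type 2 reaches into the dystrophin-lacking range for Ctss, Ctsl and Lgmn.

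Ctss encodes cathepsin S, which trims the invariant chain during class II antigen presentation and stays active at neutral pH. Its level was 6.95 in mdx utrn-/-, 7.99 in mdx 1 and 8.50 in mdx 2, against 4.18 in hDMD mdx utrn-/-, 6.14 and 5.26 in hDMD mdx, 4.77 in hDMD, and 6.03 and 7.20 in wild-type 1 and 2. The mdx arrays were the highest of all 9, and the mdx utrn-/- array lay above every dystrophin-carrying array except wild-type 2. The mean was 7.82 ± 0.79 in dystrophin-lacking muscle (SD, n = 3) and 5.60 ± 1.08 in dystrophin-carrying muscle (SD, n = 6), a 4.66-fold difference on the value + 16 scale with a 95% interval of 0.95 to 3.49 in log2 and a limma adjusted p of 0.383. The difference was 2.42 within the bright arrays and 2.12 within the dim ones, and without wild-type 2 it was 2.54 ± 0.49 with a limma adjusted p of 0.126. Over all alternatives that adjusted p ranged over 0.126 to 1.0. With the human gene as a covariate, which leaves the wild-type mice as the dystrophin-carrying mice without it, it was 1.21 ± 0.61. By genotype the order from high to low was mdx, mdx utrn-/-, wild-type, hDMD mdx, hDMD and hDMD mdx utrn-/-. The mdx utrn-/- array lay inside the range of the 2 wild-type arrays, as hDMD mdx 1 did, so these neighbours in the order did not differ beyond the spread between arrays.

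Ctsl encodes cathepsin L, a broadly acting endopeptidase that is induced in wasting muscle. Its level was 8.13 in mdx utrn-/-, 7.91 in mdx 1 and 7.66 in mdx 2, against 6.34 in hDMD mdx utrn-/-, 7.11 and 6.49 in hDMD mdx, 6.84 in hDMD, and 7.20 and 7.94 in wild-type. The dystrophin-lacking arrays had a narrow range, and only wild-type 2 overlapped it. The means were 7.90 and 6.99, with a 95% interval for the difference of 0.19 to 1.63 and a limma adjusted p of 0.774. The difference was 0.51 within the bright arrays and 1.12 within the dim ones, without wild-type 2 it was 1.10, and with the human gene as a covariate it was 0.33.

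Ctsk encodes cathepsin K, the collagen-cleaving enzyme of osteoclasts that fibroblasts also make. It had 5.97 in mdx utrn-/-, 6.12 and 5.33 in mdx, 5.59 in hDMD mdx utrn-/-, 4.67 and 5.58 in hDMD mdx, 5.47 in hDMD, and 5.24 and 6.48 in wild-type. The highest and lowest arrays were both dystrophin-carrying, and the class difference was 0.30 ± 0.35. The osteoclast and bone markers summed to 78.2 to 154 in dystrophin-lacking and 75.4 to 219 in dystrophin-carrying arrays, over 5 of 9 listed genes on the array.

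Lgmn encodes legumain, the asparaginyl endopeptidase. Its level was 5.92 in mdx utrn-/-, 6.94 in mdx 1 and 7.23 in mdx 2, against 4.42 in hDMD mdx utrn-/-, 5.85 and 5.06 in hDMD mdx, 5.47 in hDMD, and 5.64 and 6.12 in wild-type. The mdx arrays were again the 2 highest, and mdx utrn-/- lay between the 2 wild-type arrays. The means were 6.70 ± 0.69 in dystrophin-lacking muscle (SD, n = 3) and 5.43 ± 0.61 in dystrophin-carrying muscle (SD, n = 6), a 2.41-fold difference on the value + 16 scale with a 95% interval of 0.41 to 2.12 in log2 and a limma adjusted p of 0.621. The difference was 1.48 among the bright arrays and 1.16 among the dim ones, and 0.82 with the human gene as a covariate.

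Ctsb encodes cathepsin B, an endopeptidase abundant in most tissues that also removes residues from chain ends. It had 3 kept probe sets that behaved differently from each other. The brightest, 94831_at, had 9.69 in mdx utrn-/-, 10.11 and 9.49 in mdx, 9.45 in hDMD mdx utrn-/-, 8.87 and 8.99 in hDMD mdx, 9.14 in hDMD, and 8.65 and 10.11 in wild-type. Apart from wild-type 2, every dystrophin-lacking array was above every dystrophin-carrying one, and the class difference was 0.56 ± 0.31, with 0.73 among the bright arrays and 0.48 among the dim ones. The probe sets 92256_at and 95608_at differed by 0.01 ± 0.45 and 0.24 ± 0.38, and in both, the 3 bright arrays lay above every dim array except wild-type 2, whatever the genotype. Ctsb 162271_f_at, which was not kept, lay between the floor and 4.45 in dystrophin-lacking arrays and between the floor and 4.94 in dystrophin-carrying ones.

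The other exopeptidases had small differences. Ctsh, for cathepsin H, an aminopeptidase, ranged over 5.18 to 6.19 in dystrophin-lacking and 4.68 to 6.35 in dystrophin-carrying arrays, with a class difference of 0.43 ± 0.36 that was 1.02 within the bright arrays and 0.14 within the dim ones. Ctsz, for the carboxypeptidase cathepsin Z, ranged over 5.54 to 6.23 and 4.77 to 6.21 in these classes, with a difference of 0.44 ± 0.32. Ctsc encodes cathepsin C, the dipeptidyl peptidase that activates granule serine proteases of immune cells, and its probe set 101019_at had 5.81 in mdx utrn-/- and 6.96 and 6.08 in mdx, against 5.32 to 7.00 in dystrophin-carrying arrays. Its class difference was 0.34 ± 0.37, and that of the dimmer 101020_at was -0.04 ± 0.32. In all 3 of these genes wild-type 2 was the highest or second highest array. Ctsc 161251_f_at, which was not kept, lay between the floor and 4.44 in all arrays.

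Ctsd encodes cathepsin D, the main aspartic protease of the lysosome. Its level was 10.14 in mdx utrn-/-, 10.09 and 9.72 in mdx, 10.02 in hDMD mdx utrn-/-, 9.69 and 9.90 in hDMD mdx, 9.76 in hDMD, and 9.51 and 10.04 in wild-type. The bright array was the lower one in each pair of one genotype, and the classes overlapped. The class difference of 0.16 ± 0.21 had a 95% interval of -0.31 to 0.63, which leaves out a difference as large as that measured for Ctss or Lgmn.

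**Figure D2:**
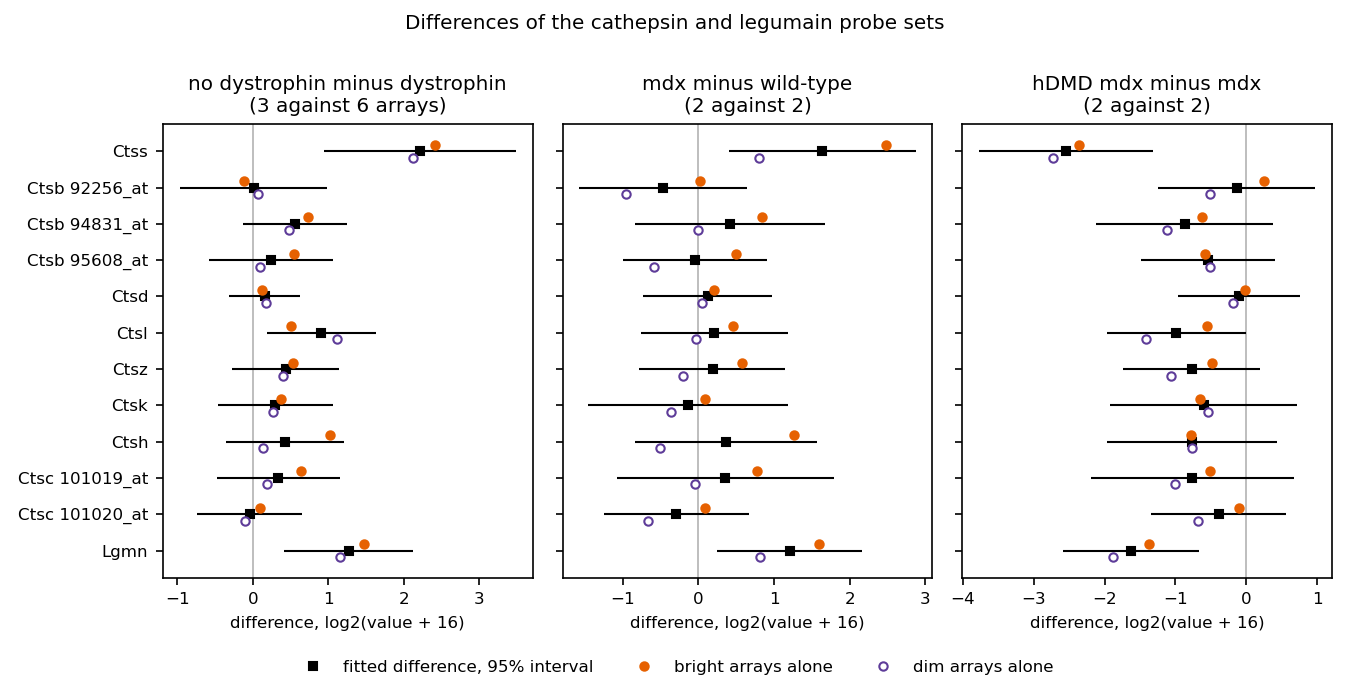
Fitted difference of each kept probe set with its 95% interval (squares and lines, log2), and the differences within the bright (filled) and dim (open) arrays alone, in 3 comparisons. In the panel of hDMD mdx minus mdx all 12 squares lie below 0 after quantile normalisation, and 7 of 12 do so in the deposited values.

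Several marker lists also differed between the classes, among them those of macrophages and of regenerating muscle. The summed linear level of macrophage and monocyte markers, over 23 of 24 listed genes on the array, was 1160 to 2340 in dystrophin-lacking arrays. It was 348 to 1800 in dystrophin-carrying ones, where 1800 was wild-type 2 and the other 5 had 348 to 538. All 18 kept markers were higher in dystrophin-lacking muscle, with a median of 0.81. In limma 0 of the 18 passed the adjusted threshold and 9 had an unadjusted p under 0.05. Cd68, a glycoprotein of macrophage lysosomes, differed by 1.32 ± 0.40, and Lyz2, macrophage lysozyme, by 1.92 ± 0.54, with limma adjusted p of 0.582 and 0.457. Fibroblast and matrix markers summed to 3400 to 4460 in dystrophin-lacking and 2070 to 5830 in dystrophin-carrying arrays, over 11 of 11 genes. Of these, 10 were higher in dystrophin-lacking muscle, with a median of 0.51. In limma 0 of the 11 passed the adjusted threshold and 2 had an unadjusted p under 0.05. The markers of regenerating muscle, over 10 of 10 genes, summed to 1350 to 3040 and 284 to 639 in these classes. All 10 were higher in dystrophin-lacking muscle, with a median of 1.58. In limma 2 of the 10 passed the adjusted threshold and 8 had an unadjusted p under 0.05. The summed neutrophil and mast cell markers, over 14 of 14 genes, were 2570 in the mdx utrn-/- array, against 130 to 458 in the other 8. The neutrophil granule genes Camp and Ngp had levels of 8.88 and 8.80 there. Of the kept mast cell genes, looked up after their values were seen, Cpa3 and Tpsb2 were at the floor in that array and Cma1 had 4.90. The floor was not particular to that array: Cpa3 was also at it in hDMD mdx 2, and Tpsb2 in hDMD mdx 2, hDMD and wild-type 1. Lymphocyte markers, over 10 of 14 genes with Cd3e at the floor in every array, summed to 199 to 238 and 164 to 699. The part of any of these cells in the values of the cathepsins was not tested.

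In mdx against wild-type muscle, Ctss and Lgmn were the members with higher values in both mdx arrays. Ctss averaged 8.25 ± 0.36 in mdx and 6.61 ± 0.83 in wild-type (SD, n = 2 each), a difference of 1.64 ± 0.52, and Lgmn averaged 7.08 ± 0.20 and 5.88 ± 0.34, a difference of 1.21 ± 0.40. These were the 2 of 12 probe sets that were higher without overlap, which 11.2% of all probe sets were, and 0 of 12 were lower without overlap, against 10.7%. They were also the 2 of 12 higher at an unadjusted p of 0.05 in limma (1.05% of all), with 0 of 12 lower (0.698% of all), while the limma adjusted p was 1.0 for both and 0% of all probe sets passed. Ctsl averaged 7.78 and 7.57, a difference of 0.21 ± 0.41. Over the 12 probe sets 8 were higher, against 50% of all, and 4 lower, with a median of 0.20. The choice of wild-type array decided this: without wild-type 1, 2 were higher and 10 lower with a median of -0.29, and without wild-type 2, 11 were higher and 1 lower with a median of 0.54. Ctss differed by 1.05 without wild-type 1 and by 2.22 without wild-type 2. Within the bright pair of arrays Ctss differed by 2.48 and Lgmn by 1.59, and within the dim pair by 0.80 and 0.82. Macrophage markers had higher values in mdx for 17 of 18 kept genes, with a median of 0.88 and 1 at an unadjusted p of 0.05 in limma, and the markers of regenerating muscle for 10 of 10, with a median of 1.44 and 5 at that p, with 0 of either list past the adjusted threshold. Their part in the result was not tested. The mdx mice were 15 and 13 weeks old and the wild-type mice 7, so age and genotype cannot be told apart. Wild-type 1 was the only female and its array was bright, so sex and brightness cannot be told apart within the wild-type pair.

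With the human gene on the mdx background, all 12 probe sets had lower values than in mdx muscle after quantile normalisation (47.3% of all probe sets were lower), and 7 of 12 did in the deposited values. The median difference was -0.76, against 0.02 over all probe sets. Ctss averaged 5.70 ± 0.62 in hDMD mdx and 8.25 ± 0.36 in mdx (SD, n = 2 each), a difference of -2.54 ± 0.52 with a 95% interval of -3.77 to -1.32, or 0.171-fold on the value + 16 scale. Lgmn averaged 5.46 ± 0.56 and 7.08 ± 0.20, a difference of -1.63 ± 0.40 with an interval of -2.58 to -0.67. Ctsl averaged 6.80 and 7.78, a difference of -0.99 ± 0.41. In all 3 both hDMD mdx arrays lay below both mdx arrays, and this also held for Ctsb 94831_at (-0.87 ± 0.53), Ctsz (-0.77 ± 0.41), Ctsh (-0.77 ± 0.51), Ctsc 101019_at (-0.76 ± 0.60) and Ctsc 101020_at (-0.39 ± 0.40). That made 8 of 12 lower without overlap, against 13.1% of all probe sets, and 0 of 12 higher, against 13.9%. Ctsk differed by -0.60 ± 0.56, Ctsb 95608_at by -0.54 ± 0.40, Ctsb 92256_at by -0.13 ± 0.47 and Ctsd by -0.11 ± 0.36, all with overlapping arrays.

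At an unadjusted p of 0.05 in limma 3 of 12 were lower (Ctss, Ctsl and Lgmn, against 1.99% of all) and 0 were higher (0.899%). Ctss and Lgmn were the 2 members with a difference of -1 or less, against 2.09% of all, while 0% of all probe sets passed the adjusted threshold and the limma adjusted p of each member was 1.0. With array brightness as a block 4 of 12 had an unadjusted p under 0.05 in limma (7.29% of all), Ctsb 94831_at besides these 3, and the limma adjusted p was 0.44 for Ctss and 0.491 for Lgmn. Ctss differed by -2.36 within the bright pair of arrays and -2.73 within the dim pair, and Lgmn by -1.38 and -1.88. Leaving out any 1 array of these genotypes kept 11 or 12 of 12 lower, with medians of -0.64 to -0.83. In the deposited values, where the median of all probe sets was 0.51, 5 members were higher and 7 lower with a median of -0.10, 11 of 12 lay below that median, and 0 of 12 were free of overlap (0.751% of all were lower without overlap). The macrophage markers had lower values in hDMD mdx than in mdx for 18 of 18 kept genes, with a median of -1.12, the fibroblast markers for 10 of 11, with a median of -1.24, and the markers of regenerating muscle for 9 of 10, with a median of -1.76. In limma 0 of these markers passed the adjusted threshold, and 6 of each list were lower at an unadjusted p of 0.05. Their part in the result was not tested.

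**Figure D3:**
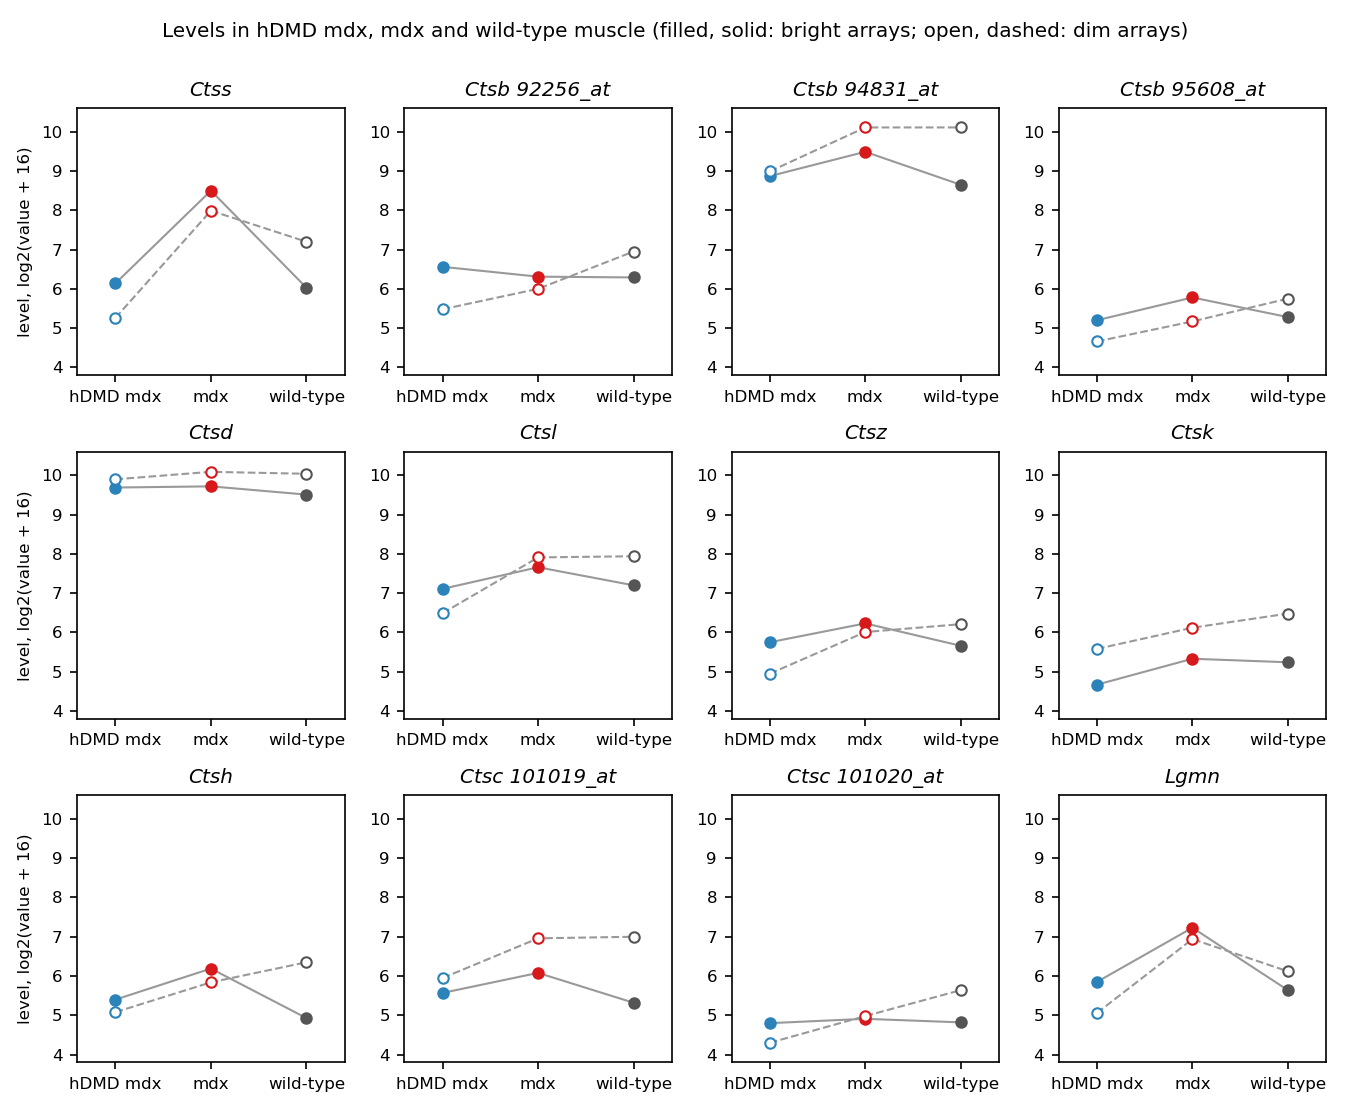
Level of the 12 kept probe sets, log2(value + 16), in hDMD mdx, mdx and wild-type arrays, with filled points and solid lines for the bright array of each genotype and open points and dashed lines for the dim one. Ctss and Lgmn have both mdx arrays on top in both brightness classes, while for most other members the dim wild-type array, which is wild-type 2, is as high as mdx 1 or higher.

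Against wild-type muscle, hDMD mdx muscle had lower values for 11 of 12 probe sets, against 47.5% of all, with a median of -0.59, and only Ctsd was higher, by 0.02 ± 0.36. In limma 0% of all probe sets passed the adjusted threshold, and 0 of 12 members had an unadjusted p under 0.05 in either direction (0.389% of all were higher and 0.443% lower). With array brightness as a block 1 of 12 did, Ctsk, with a difference of -0.73 ± 0.25 and a limma unadjusted p of 0.0249 (3.3% of all in either direction) and an adjusted p of 0.946. Without the block, Ctsk differed by -0.11 when wild-type 2 was left out, by -0.27 without hDMD mdx 1, by -1.19 without hDMD mdx 2 and by -1.35 without wild-type 1. Ctss averaged 5.70 ± 0.62 in hDMD mdx and 6.61 ± 0.83 in wild-type (SD, n = 2 each), a difference of -0.91 ± 0.52, Lgmn differed by -0.42 ± 0.40 and Ctsl by -0.77 ± 0.41. Ctsl, Ctsb 95608_at and Ctsc 101020_at were the 3 of 12 lower without overlap, against 8.48% of all. Within the bright arrays Ctss differed by 0.12, Lgmn by 0.21 and Ctsl by -0.09, whereas within the dim arrays, where wild-type 2 is the wild-type array, they differed by -1.93, -1.05 and -1.46. Fibroblast markers had lower values in hDMD mdx for 11 of 11 genes, with a median of -1.31 and 5 at an unadjusted p of 0.05 in limma, macrophage markers for 17 of 18, with a median of -0.39, and class II genes for 8 of 8, with a median of -1.01, with 0 at that p in these last lists and 0 of all 3 lists past the adjusted threshold. Their part in the result was not tested. Without wild-type 2, 4 of 12 were higher and 8 lower with a median of -0.22, and without wild-type 1 all 12 were lower with a median of -1.1. In the deposited values 9 were higher and 3 lower, though all 12 lay below the median of all probe sets, 0.53. The hDMD mdx mice were 24 and 10 weeks old and the wild-type mice 7, so age and genotype cannot be told apart here either. The sex of wild-type 1, the only female, applies here as well.

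Loss of utrophin was examined on both mdx backgrounds, as mdx utrn-/- and hDMD mdx utrn-/- against mdx and hDMD mdx (2 against 4 arrays, with the human gene as an additive term). Ctss and Lgmn had lower values in the utrn-/- arrays: the Ctss means were 5.56 and 6.98, a difference of -1.41 ± 0.36 with a 95% interval of -2.24 to -0.58, and the Lgmn means were 5.17 and 6.27, a difference of -1.10 ± 0.33. On the mdx background Ctss was 6.95 in mdx utrn-/- against 7.99 and 8.50 in mdx, and with the human gene it was 4.18 in hDMD mdx utrn-/- against 6.14 and 5.26 in hDMD mdx. Each utrn-/- array thus lay below both arrays of its own background for Ctss, and the same held for Lgmn. In limma 5 of 12 were lower at an unadjusted p of 0.05 (Ctss, Lgmn, Ctsh, Ctsb 92256_at and Ctsb 95608_at, against 3.65% of all) and 0 higher (2.25% of all). With array brightness as a block 2 of 12, Ctss and Lgmn, had an unadjusted p under 0.05 in limma (6.86% of all), and Ctsh, Ctsb 92256_at and Ctsb 95608_at did not. The limma adjusted p was 0.74 for Ctss and Lgmn, and 0% of all probe sets passed. The median over the 12 was -0.54, with 3 higher, against 48.4% of all, and 9 lower, and 2 of 12 were lower without overlap (Ctsb 95608_at and Ctsc 101020_at, against 9.18% of all). Both utrn-/- arrays were dim, and within the dim arrays Ctss differed by -1.06 and Lgmn by -0.83. The hDMD mdx utrn-/- array had the lowest deposited median of all arrays, 1.47, and its part in these differences was not tested. Macrophage markers had lower values in the utrn-/- arrays for 16 of 18 kept genes, with a median of -0.41 and 4 at an unadjusted p of 0.05 in limma. Neutrophil and mast cell markers had higher values for 8 of 11, with a median of 1.3 and 5 at that p. In both lists 0 passed the adjusted threshold. The 3 lower genes were the mast cell genes Cma1, Cpa3 and Tpsb2. The summed neutrophil and mast cell markers were 2570 in mdx utrn-/- against 277 and 130 in mdx. With the human gene they were 406 in hDMD mdx utrn-/- against 149 and 246 in hDMD mdx, so most of the rise lay in 1 array. The part of these 2 lists in the result was not tested. In the deposited values all 12 were lower, and 10 of 12 lay below the median of all probe sets, -1.2. The utrn-/- mice, aged 5 and 9 weeks, were younger than all mice they were set against, so age and utrophin genotype cannot be told apart. These comparisons share arrays with each other and with the class comparison, so they are not independent.

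By array, the 12 members together had a median deviation from their means over all arrays of -0.01 in mdx utrn-/-, with 6 of 12 above the mean, 0.45 in mdx 1 (12 of 12 above) and 0.37 in mdx 2 (10 of 12). Among dystrophin-carrying arrays it was -0.11 in hDMD mdx 1, -0.43 in hDMD mdx 2 and -0.16 in hDMD. Wild-type 1 was at -0.26 and wild-type 2 at 0.80, the highest of all arrays, with 12 of 12 above the mean, so the 2 wild-type mice differed from each other by more than the 2 mdx or the 2 hDMD mdx mice did. Each of these pairs held a bright and a dim array, and only the wild-type pair also differed in sex. The lowest array was hDMD mdx utrn-/- at -0.81, which held the lowest value of 8 of the 12 probe sets. It also had the lowest deposited median, 1.47, and 5.21% of kept probe sets at the floor, against 1.92% to 3.35% elsewhere. The part of this weak signal in its values was not tested. Macrophage markers deviated by 0.99 in mdx 1, 0.53 in mdx 2 and 0.02 in mdx utrn-/-, against 0.55 in wild-type 2 and -0.54 to -0.24 in the other 5 arrays. Adipocyte markers deviated most in wild-type 2, by 1.61.

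**Figure D4:**
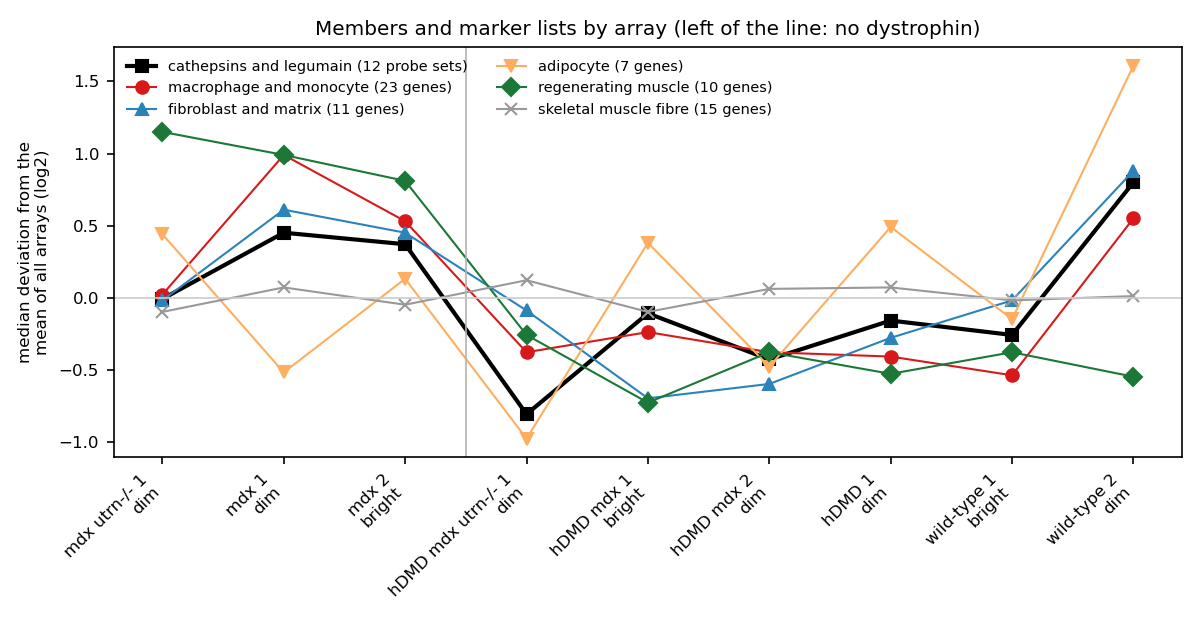
Median deviation from the mean of all arrays (log2) of the 12 cathepsin and legumain probe sets and of 5 marker lists, by array, with dystrophin-lacking arrays left of the vertical line. The cathepsin line peaks in the mdx arrays at 0.45 and 0.37 and in wild-type 2 at 0.80, as the macrophage and fibroblast lines do. The muscle fibre line stays near 0, where quantile normalisation leaves the brightest fibre genes little room to vary.

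Ctss, Lgmn and Ctsb 92256_at varied most over the 9 arrays, and the genes most like them were sought among 6698 kept probe sets with 1 symbol. The Pearson r with Ctss was 0.966 for Laptm5, a lysosomal membrane protein of blood cells, 0.962 for Basp1, a membrane-bound signalling protein, and 0.959 for Gusb, the lysosomal β-glucuronidase. For Lgmn it was 0.967 with Gusb, 0.956 with Ctss and 0.942 with Cstb. For Ctsb 92256_at it was 0.961 with Cma1, mast cell chymase, 0.944 with Bcap31, a chaperone of the endoplasmic reticulum membrane, and 0.938 with Api5, an inhibitor of apoptosis. Among the members, r with Ctss over 9 arrays was 0.862 for Ctsl, 0.845 for Ctsz, 0.291 for Ctsk and 0.12 for Ctsd, and over the 6 dim arrays it was 0.923, 0.815, 0.85 and 0.652. These values describe arrays that share genotype and brightness classes, and they carry no test.

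The inhibitors and partners of the cathepsins were described from lists, each counted by the brightest probe set of a gene. Of 5 kept cathepsin inhibitors 2 were higher in dystrophin-lacking muscle, with a median of -0.27. In limma 0 of the 5 passed the adjusted threshold and 1, Cstb, had an unadjusted p under 0.05. Cstb, which encodes cystatin B, the inhibitor found in the cytosol, had 7.27 in mdx utrn-/- and 7.88 and 7.95 in mdx, against 6.29 in hDMD mdx utrn-/-, 7.10 and 6.25 in hDMD mdx, 6.40 in hDMD, and 6.90 and 6.97 in wild-type. All 3 dystrophin-lacking arrays were above all 6 others, a difference of 1.05 ± 0.27 with a limma adjusted p of 0.383, and the difference between hDMD mdx and mdx was -1.24 ± 0.38. Cst3, the secreted inhibitor cystatin C, differed by -0.27 ± 0.19. Serpina3n, a secreted serpin that inhibits serine proteases, had 7.25 in mdx utrn-/- and 7.69 and 7.00 in mdx, against 5.91 in hDMD mdx utrn-/-, 5.86 and 6.04 in hDMD mdx, 5.27 in hDMD, and 4.56 and 8.25 in wild-type. The wild-type arrays were the lowest and the highest of all 9, and the class difference was 1.33 ± 0.61 with a limma adjusted p of 0.894. Of 4 other cathepsins kept, Ctsa, the carboxypeptidase that protects other lysosomal enzymes, differed by 0.39 ± 0.25, and Ctse, an aspartic protease, by -0.72 ± 0.26 with a limma adjusted p of 0.764.

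The lists of other lysosomal hydrolases, of membrane and proton pump genes and of targeting and sorting genes had medians between -0.01 and 0.14, against -0.01 for all probe sets. Of 22 other lysosomal hydrolases 11 were higher in dystrophin-lacking muscle, with a median of -0.01, and of 22 membrane and proton pump genes 14 were, with a median of 0.08. Lamp1, the main lysosomal membrane glycoprotein, differed by 0.12 ± 0.19. Targeting and sorting genes had 9 of 13 higher with a median of 0.14, autophagy genes and lysosome regulators 4 of 16 with a median of -0.20, and other muscle proteolysis genes 2 of 5 with a median of -0.30, among them the muscle calpain Capn3 at -0.55 ± 0.21. Class II presentation genes, which act with cathepsin S, had 7 of 8 higher with a median of 0.53, and Cd74, the invariant chain, differed by 0.52 ± 0.50. Over all 7453 probe sets 48.2% were higher, with a median of -0.01. Between hDMD mdx and mdx, 15 of 22 hydrolases were lower with a median of -0.29, 7 of 8 class II genes with a median of -1.08, and 5 of 16 autophagy genes with a median of 0.27. In each of these lists 0 genes passed limma's adjusted threshold in either comparison. At an unadjusted p of 0.05 in limma, 2 hydrolases were higher and 1 lower in dystrophin-lacking muscle. There, 2 membrane and pump genes, 1 class II gene and 1 autophagy gene were also higher, and 2 autophagy genes and 1 muscle proteolysis gene, Capn3, were lower. Between hDMD mdx and mdx, 2 hydrolases and 2 membrane and pump genes were lower in hDMD mdx at that p, and 1 autophagy gene was higher.

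**Figure D5:**
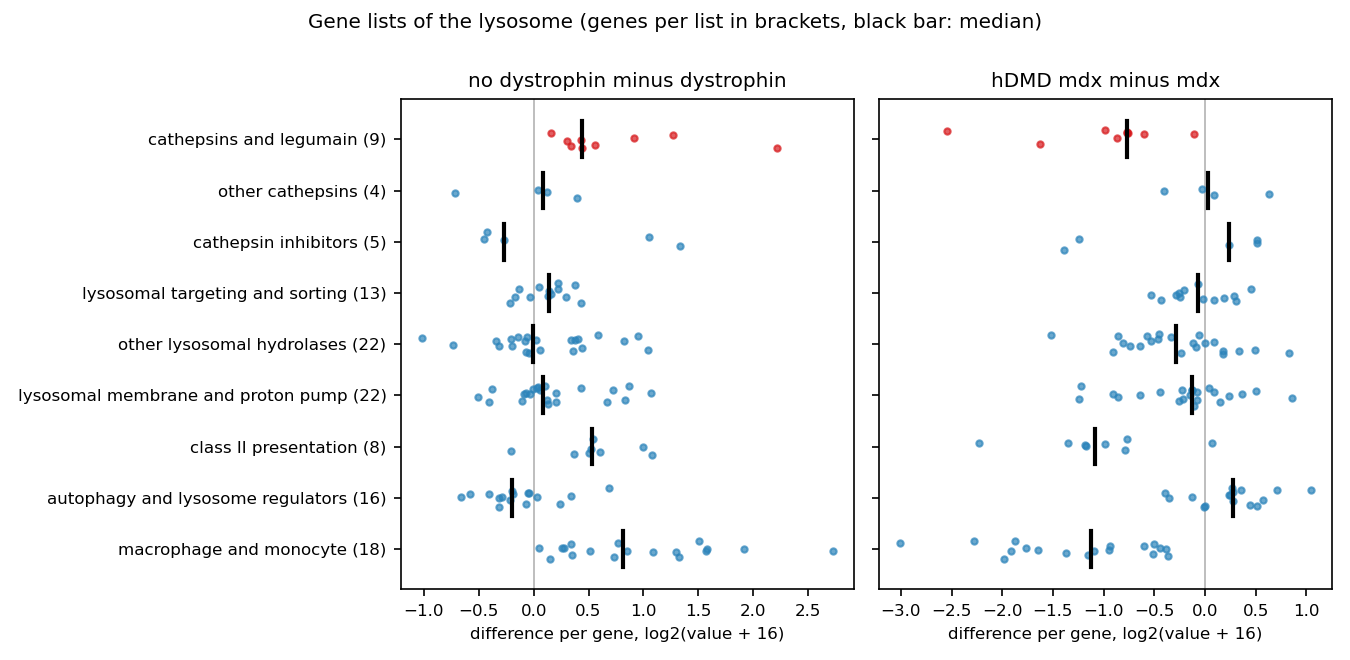
Difference per gene (points, log2) and list median (black bars) for the 9 cathepsin and legumain genes, in red, and 8 related lists, in dystrophin-lacking minus dystrophin-carrying arrays and in hDMD mdx minus mdx arrays. The cathepsin medians of 0.44 and -0.77 stand beside those of the class II list (0.53 and -1.08) and the macrophage list (0.81 and -1.12), while the other lysosomal hydrolases lie at -0.01 and -0.29. Of lists not drawn, fibroblast markers had medians of 0.51 and -1.24, and markers of regenerating muscle 1.58 and -1.76.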

How the data were processed

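Transcripts were measured in 9 mice on Affymetrix U74Av2 arrays, with RNA extracted with Trizol and RNeasy and copied from T7-dT24 primers, per the labels' protocols. The authors deposited 1 intensity per probe set on a linear scale; the expression measure, software and scaling were not given in the sources used here. Of 12488 probe sets 66 controls were left out. Names came from the platform annotation, with 10833 probe sets carrying 1 symbol, 396 several and 1193 none, and 10817 of the 10833 matched a current symbol while 16 kept an older one. Intensities were quantile normalised over the 9 arrays, values below 0 were set to 0, 16 was added and log2 taken. Probe sets with a mean above the 40th percentile (4.46) were kept, 7453 in all.

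Comparisons were fitted in R 4.3.3 with limma 3.58.1 (lmFit, contrasts.fit, eBayes), two-sided, with Benjamini-Hochberg adjustment over the 7453 and a threshold of 0.05. The class comparison had 7 residual degrees of freedom. The genotype comparisons had 3, from the 3 genotypes with 2 mice, and so did the utrophin comparison. P-values measure the spread between arrays, and the number of arrays limits the precision. Each genotype with 2 mice had 1 bright and 1 dim array, so without the brightness block this spread holds brightness as well as mouse. In the class comparison it also holds differences of genotype and age. The fits were run on simulated data with known changes. Those values were drawn independently for each probe set, without bright and dim arrays, so they do not show how the fits perform with that split. The members, lists and tests were chosen with earlier results of these data known. The named genes were all members, the 3 genes with the highest mean of each list, a short list of cystatins, lysosomal and macrophage genes, and for likeness the 3 genes with the highest Pearson r. Alternatives changed the normalisation, filter, pseudocount, variance model, samples, covariates, brightness and mice.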

Additional observations from a re-analysis of the deposited data

Results flagged for a closer look

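Ctsb 162271_f_at, the dim cathepsin B probe set that did not pass the filter, had 1 array far from the others: in hDMD mdx utrn-/- it was 4.94, against values between the floor of 4 and 4.18 in the other 5 dystrophin-carrying arrays. The gap to the nearest array was 0.803 of the group's range, above the critical value of 0.625 for 6 samples. It was the 1 of 14 member probe sets examined in this way that passed. Chance flags about 1 in 20 groups of unclipped values, but 3 of these 6 values were at the floor, so the critical value and that rate do not hold here.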

How the results depend on the processing

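In all 73 alternatives 0 member probe sets were called by limma at an adjusted p of 0.05, and the smallest adjusted p was 0.126. Of the single differences, which include other named genes such as Cstb and Lyz2 besides the members, 667 values kept their sign and 28 changed sign. No single difference passed the adjusted threshold in any fit, the smallest limma adjusted p being 0.0917 for Lyz2. Keeping the same side of the threshold therefore says nothing about how stable they were. Ctss, Ctsl and Lgmn kept their direction in all 19 alternatives of the class comparison, over 1.21 to 2.99, 0.33 to 1.12 and 0.73 to 1.77. Some changes of sign concerned differences close to 0 and others differences as large as that of Ctss in hDMD mdx minus wild-type, -0.91, and the cause was not tested. In the class comparison Ctsb 92256_at was -0.26 in the deposited values, -0.04 with 75th percentile scaling, -0.04 with a pseudocount of 64 and -0.67 with the human gene as a covariate. That covariate also turned Ctsb 95608_at (-0.35), Ctsz (-0.01) and Ctsk (-0.05), and a pseudocount of 1 turned Ctsc 101020_at (0.01). With 1 mouse left out, Ctsb 92256_at spanned -0.26 to 0.21, Ctsb 95608_at -0.07 to 0.55 and Ctsc 101020_at -0.17 to 0.17. Ctsl in mdx minus wild-type was -0.11 with age as a covariate and -0.16 to 0.59 with 1 mouse left out. In hDMD mdx minus mdx the deposited values gave 0.61 for Ctsb 92256_at, 0.06 for Ctsb 95608_at, 0.31 for Ctsd, 0.05 for Ctsz and 0.22 for Ctsc 101020_at, and leaving out 1 mouse gave -0.67 to 0.41 for Ctsb 92256_at and -0.29 to 0.08 for Ctsd. In hDMD mdx minus wild-type the deposited values gave 0.08 for Ctss and 0.45 for Lgmn. The count of all probe sets called in the class comparison, 9, was 0 in the deposited values, 2 without the filter, 1 with a pseudocount of 1, 2 with the human gene as a covariate, and 2 to 18 with 1 mouse left out, with 18 without wild-type 1. No paired analysis was possible because the replicate numbers follow accession order and pair no mice. Fits on the dim arrays alone could not be made for the genotype comparisons, where each genotype has 1 dim array. Counts of arrays without overlap under other scalings, and values within each brightness, were added after seeing the data. Probe sets close to the floor, such as Ctsc 101020_at, had compressed differences.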
